A study of Mus musculus with 51 samples.

Results

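Expression of 8 genes of the pluripotency network was followed by RNA-seq through the differentiation of mouse embryonic stem (ES) cells toward cardiac mesoderm. The genes were taken by symbol from the 24538 rows of each of the 9 deposited expression tables, and all 8 were found in every table. *Pou5f1* (encoding Oct4), *Nanog* and *Sall4* encode transcription factors of the core network, *Utf1* encodes a chromatin-associated factor, *Lin28a* and *Lin28b* encode RNA-binding proteins, and *Otx2* and *Pou3f1* (Oct6) encode transcription factors of the formative state. RNA was measured in F1G4 WT cells in the ES state, when feeder-depleted cells had aggregated in hanging drops. It was also measured after 1, 2 and 3 days in medium with Bmp4 (20 ng/ml). All differentiated cells of both parental lines received this medium. Differentiating cells lacking the T-box factors Eomes (*Eomes* KO), T (*T* KO) or both (*Eomes*/*T* dKO) were measured on days 2 and 3. They descend from F1G4 cells, in which paired Cas9 nickase cuts removed the promoter and first exon, and were picked as single clones. The dKO line was derived from the *Eomes* KO cells, so these 2 lines are not separate derivations. *Smad4* KO cells lack the first exon of the gene for the common Smad cofactor of BMP and Nodal signaling. They are the progeny of single clones obtained by transient Cre expression, and they were measured on days 1 and 2 beside their floxed parental line of 129S/SvEvxC57BL/6 background, called here the WT of the *Smad4* line.

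Naive ES cells, which correspond to the preimplantation epiblast, pass through a formative state before they can respond to inductive signals of the primitive streak. Oct4 is held through this transition, Nanog is known to be lost when naive cells leave that state and to return in the posterior epiblast where mesoderm forms, and Otx2 and Oct6 appear with the formative state, Otx2 later being confined to the anterior of the embryo. LIN28 proteins bind precursors of the let-7 microRNA family and block their maturation. Sall4 and Utf1 act at the chromatin of pluripotent cells, and Utf1 is lost early in differentiation.

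In the RefSeq annotation of GRCm38.p6 (the mm10 build the authors aligned to), *Pou5f1* lies at chr17:35506032-35510777 on the plus strand, *Nanog* at chr6:122707489-122714633 (plus), *Sall4* at chr2:168748332-168767201 (minus) and *Utf1* at chr7:139943856-139945112 (plus). *Lin28a* lies at chr4:134003330-134019196 (minus), *Lin28b* at chr10:45376617-45486314 (minus), *Otx2* at chr14:48656781-48667644 (minus) and *Pou3f1*, a gene of 1 exon, at chr4:124657646-124660655 (plus). *Sall4* overlaps an annotated lncRNA gene (*Gm14261*) and *Lin28b* a pseudogene (*Gm51827*).

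RefSeq promoter windows, from 250 bases before to 50 after a transcript start, were at hand for 6 of the 8 genes and not for *Sall4* and *Pou3f1*. The windows are shown because several of these genes encode factors that bind the letters searched for: the octamer ATGCAAA (Oct4 and Oct6), the SOX motif CATTGT (Sox2) and the OTX motif TAATCC (Otx2), each on both strands. Only windows with a match are printed. Capitals mark the matches, which read as the reverse complement where they lie on the minus strand of the gene.
*Nanog*, chr6:122707239-122707538 (plus): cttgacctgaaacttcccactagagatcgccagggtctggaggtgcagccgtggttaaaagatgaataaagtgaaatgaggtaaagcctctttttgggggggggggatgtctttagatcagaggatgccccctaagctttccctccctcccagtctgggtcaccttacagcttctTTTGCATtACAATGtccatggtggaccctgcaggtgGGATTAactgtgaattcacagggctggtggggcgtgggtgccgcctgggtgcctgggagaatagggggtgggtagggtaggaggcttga
*Lin28a*, chr4:134018767-134019066 (minus): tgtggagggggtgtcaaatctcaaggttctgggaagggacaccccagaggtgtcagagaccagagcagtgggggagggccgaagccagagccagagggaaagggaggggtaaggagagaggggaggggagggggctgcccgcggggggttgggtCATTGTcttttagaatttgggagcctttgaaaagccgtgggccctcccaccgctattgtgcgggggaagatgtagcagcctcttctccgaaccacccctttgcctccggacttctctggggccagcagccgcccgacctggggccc
*Otx2*, an internal start, chr14:48665060-48665359 (minus): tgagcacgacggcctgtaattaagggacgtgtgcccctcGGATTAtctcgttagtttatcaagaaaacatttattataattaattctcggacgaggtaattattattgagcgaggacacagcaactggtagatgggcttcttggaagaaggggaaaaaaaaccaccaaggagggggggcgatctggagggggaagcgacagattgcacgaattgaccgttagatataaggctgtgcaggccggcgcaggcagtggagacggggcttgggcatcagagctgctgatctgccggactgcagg
The *Nanog* window held an octamer match at −75 to −69 from the start, a SOX match at −67 to −62, 1 base away from it, and an OTX match at −39 to −34. Of 32851 windows, 4.63% held the octamer, 12.57% the SOX motif and 7.06% the OTX motif. The octamer and SOX letters in this arrangement occurred in 2 windows, which overlap and both belong to *Nanog*. The arrangement was read from the *Nanog* window before it was counted, so a match there was given in advance. The *Lin28a* window held 1 SOX match (−96 to −91). Its start, at chr4:134018816, and that of the *Lin28b* window, at chr10:45470201, lie inside the gene spans given above. The internal *Otx2* start held 1 OTX match (−211 to −206). The windows of *Utf1* and *Lin28b*, the first *Pou5f1* window and those of all other *Otx2* starts, the outermost included, held no match to these motifs. Nor did they match the T-box (GGTGTGA), SMAD (GGCGCC) and TCF/LEF (ATCAAAG) letters, found in 3.98%, 11.87% and 3.73% of windows. The window of an internal *Pou5f1* start, chr17:35508557-35508856 (plus), held a SOX match (−158 to −153) and an OTX match (−31 to −26). A match is a stretch of letters and no evidence of binding.

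The deposited values are FPKM (fragments normalized to transcript length and library size), a measure of level per length, with a single value per gene and condition. By the study's figure legends, expression was averaged over replicates, whereas the labels list 1 sample for each KO line and day and for each day of the WT of the *Smad4* line, so how many libraries such a column holds is not known. Spread between replicates and depth are therefore unknown, no test was possible, and no difference given here has a replicate check. The authors' rule was applied throughout: genes above FPKM 1 in either group were examined, and those whose log2 ratio was above 1 or below −1 were called. Of all genes, 10418 to 11248 stood above FPKM 1 in a column. The *Eomes* KO column of day 3 and the *T* KO column of day 2 stood apart from the other KO columns, with 16.4% and 15.6% of examined genes called. As these are bulk samples, fewer cells expressing a gene and less RNA per cell cannot be told apart.

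*Pou5f1* was the highest of the 8 genes in all 14 condition columns, among the top 60 to 227 of 24512 genes, and *Lin28a* was second in 13 of them. *Pou3f1* was the lowest in 12. Levels of *Nanog* varied the most over the columns, from 16.1 to 183 FPKM (11.4-fold), followed by *Utf1* (4.15 to 31.1, 7.49-fold), *Pou3f1* (2.28 to 15.3, 6.71-fold) and *Otx2* (10.0 to 54.2, 5.42-fold). *Pou5f1* (253 to 1004), *Sall4* (19.1 to 59.7), *Lin28b* (16.4 to 44.0) and *Lin28a* (120 to 313) varied by 3.97-, 3.13-, 2.69- and 2.61-fold. As tables were normalized separately, these levels compare columns across tables, where the F1G4 WT columns themselves differed by factors of 0.989 to 1.04.

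**Figure D1:**
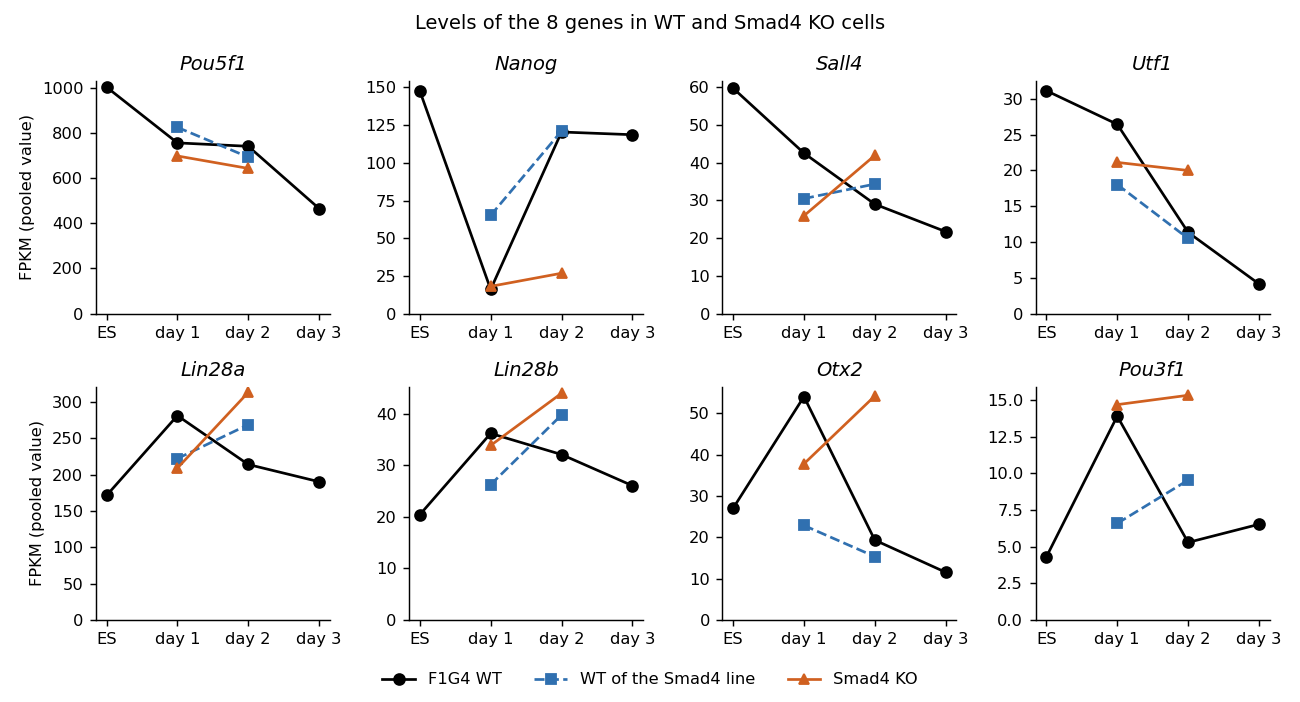
FPKM (linear axis, pooled value per condition) of each gene in F1G4 WT cells from the ES state to day 3 (black circles), and in the WT (blue squares) and *Smad4* KO cells (orange triangles) of the *Smad4* line on days 1 and 2. *Nanog* stood at 16.1 on day 1 in F1G4 WT cells against 65.2 in the WT of the *Smad4* line, and on day 2 at 120 and 121 against 26.8 in *Smad4* KO cells.

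The 8 genes followed 3 courses in F1G4 WT cells. *Pou5f1*, *Sall4* and *Utf1* were lower at each step, *Nanog* was low on day 1 and high again on day 2, and *Lin28a*, *Lin28b*, *Otx2* and *Pou3f1* were highest on day 1. From ES to day 1, 3 of the 8 genes were called (37.5%) against 13.5% of the 11030 genes examined. *Nanog* fell and *Otx2* and *Pou3f1* rose, beside 5.84% of genes called lower and 7.70% called higher. The median log2 ratio was 0.24 over the 8 genes and −0.06 over all genes examined.

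*Pou5f1* levels were 1002, 755, 740 and 465 FPKM in ES cells and on days 1, 2 and 3, still within the top 0.604% of genes on day 3. No single step passed the threshold (log2 ratios of −0.41, −0.03 and −0.67), but between ES and day 3 it fell by 1.11 on the log2 scale, a call lost after rescaling to TPM (−0.98). *Sall4* levels were 59.7, 42.5, 29.0 and 21.7, a decrease of similar size at each step (−0.49, −0.55 and −0.42) that summed to a log2 ratio of −1.46. *Utf1* had the steepest loss, with 31.1, 26.4, 11.4 and 4.15 FPKM. It fell from day 1 to day 2 (log2 ratio −1.22) and again from day 2 to day 3 (−1.45), to a log2 ratio of −2.91 relative to ES cells.

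*Nanog* levels were 148, 16.1, 120 and 119 FPKM. Its day 1 value alone was low, a log2 ratio of −3.20 relative to ES cells (9.18-fold lower) that ranked 72 from the lowest of 11030 genes. From day 1 to day 2 it rose by a log2 ratio of 2.90 (7.49-fold), rank 69 from the highest of 11262 genes. In its rank among all genes *Nanog* went from 625 to 4200 and back to 655. The ratio of *Pou5f1* to *Nanog* levels, per length, was lowest in *T* KO cells on day 2 (2.99) and highest in F1G4 WT cells on day 1 (46.9).

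*Otx2* levels were 27.0, 54.1, 19.3 and 11.5 FPKM, the day 1 value lying just past the threshold (log2 ratio 1.00, or 0.97 with a pseudocount of 1). *Pou3f1* levels were 4.29, 13.9, 5.28 and 6.52, with a log2 ratio of 1.69 on day 1. Both fell from day 1 to day 2 (log2 ratios of −1.49 for *Otx2* and −1.40 for *Pou3f1*), and on day 3 *Otx2* stood below its ES level (−1.23) while *Pou3f1* did not (0.60, not called). The *Lin28* genes peaked on the same day within smaller ratios, none of them called. *Lin28a* levels were 171, 281, 214 and 190 (log2 ratio 0.72 on day 1) and *Lin28b* levels were 20.4, 36.2, 32.1 and 26.0 (0.83). *Lin28a* exceeded *Lin28b* per length by 3.70-fold (*Eomes* KO day 3) to 10.4-fold (*T* KO day 3).

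From day 1 to day 2, 4 of the 8 genes were called, against 11.3% of 11262 genes. They were *Nanog* (higher, as were 7.17% of all genes) and *Utf1*, *Otx2* and *Pou3f1* (lower, as were 4.13%). From day 2 to day 3 only *Utf1* of the 8 was called, against 10.2% of 11396 genes, although 7 of the 8 ratios were below 0 (median −0.36, against 0.01 over all genes). Between ES and day 3, 4 of the 8 genes were called, *Pou5f1*, *Sall4*, *Utf1* and *Otx2*, all lower, against 31.1% of 11556 genes (12.6% lower and 18.5% higher). The median log2 ratio was −0.71 over the 8 genes and −0.02 over all genes.

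The 10 naive pluripotency genes, listed for comparison, were all called lower on day 1 (median log2 ratio −3.35). They ran from *Klf5* (42.0 to 11.4 FPKM, −1.88) to *Prdm14* (4.17 to 0.0599, −6.12), both transcription factor genes of the naive network. *Nanog* was thus within their range on day 1, but on day 2, when it returned, only *Tbx3* of the 8 naive genes examined was called higher (1.01 to 3.36, log2 ratio 1.74), and 4 were called lower, *Nr5a2* the most (−2.40). By day 3, 9 of 10 were called lower relative to ES cells, with *Tcl1* lowest (−5.80). Of the 7 core partners, proteins found with Oct4 or Nanog, 2 fell on day 1, *Nr0b1* (60.3 to 5.04, −3.58), which encodes the orphan nuclear receptor Dax1, and *Sox2* (256 to 104, −1.30), the partner of Oct4 at octamer sites. Both fell again on day 2, *Sox2* to 21.5, so that the ratio of *Pou5f1* to *Sox2* levels went from its lowest in ES cells (3.91) to its highest on day 2 (34.4).

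Of 10 further genes of the formative and primed states, 4 rose on day 1 and 2 fell. *Fgf5*, a growth factor gene of the postimplantation epiblast, rose from 0.809 to 8.39 FPKM (log2 ratio 3.37), and *Tcf15* fell from 35.6 to 10.4 (−1.77). The list did not share one course. On day 2, 5 of the 10 were called lower, from *Grhl2* (−1.02) to the DNA methyltransferase gene *Dnmt3a* (−1.90), and none higher, while *Fgf5* was called higher from day 2 to day 3 (11.5 to 26.0, 1.18). Among 9 genes that act with LIN28 or are repressed by let-7, *Hmga2* rose (2.10 to 5.19, log2 ratio 1.31) and *Mycn* fell (129 to 58.2, −1.14) on day 1. Of the 18 paralogs (POU, SALL and OTX family genes) only 4 were above FPKM 1 in either state, and *Sall2* rose (1.81 to 12.9, 2.84) while *Pou4f2* fell (1.41 to 0.330, −2.10). *Otx1* and *Crx* were at 0.123 FPKM or less in every column, which left *Otx2* as the only OTX family gene above FPKM 1.

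**Figure D2:**
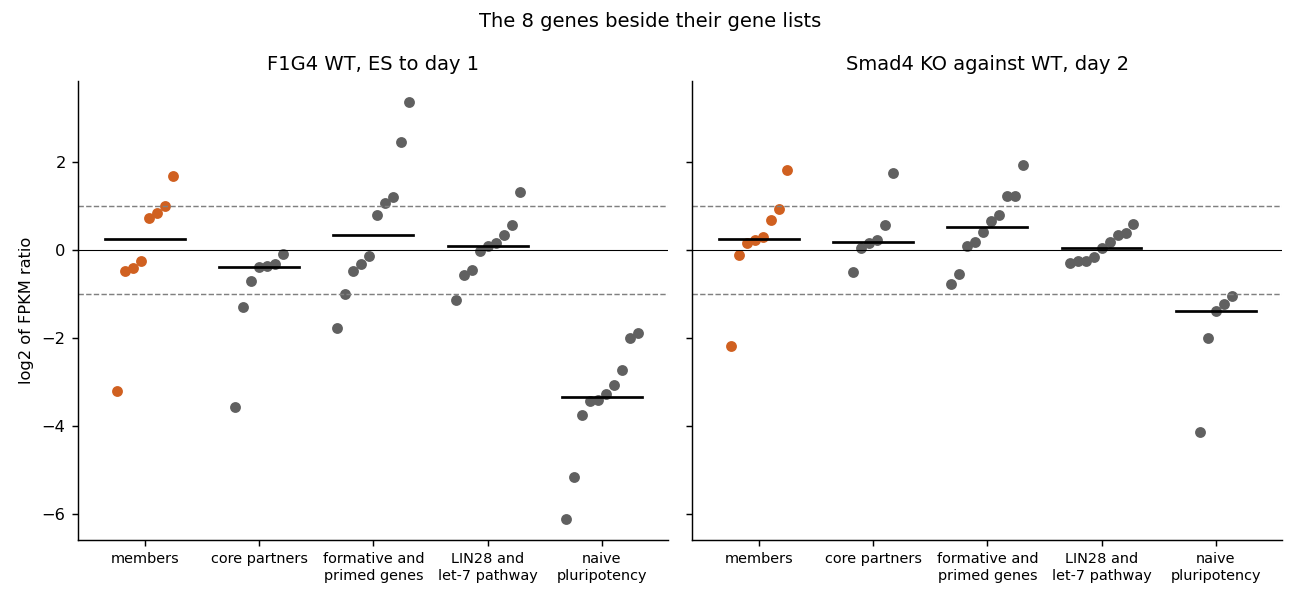
Log2 ratio of FPKM for the 8 genes (orange) and for the examined genes of 4 lists (gray), from ES to day 1 in F1G4 WT cells (left) and in *Smad4* KO against WT on day 2 (right). Each point is a gene, black bars are medians and dashed lines mark the threshold of ±1. The naive genes have the lowest median in both panels (−3.35 and −1.38), on the right over the 5 of 10 that were examined.

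*Smad4* KO was compared with its WT to ask which genes depend on BMP and Nodal signaling through Smad4. On day 1, 2 of the 8 genes were called, against 4.77% of 11232 genes, and on day 2 again 2 of 8, against 5.77% of 10999 genes. *Nanog* was lower on both days. *Otx2*, *Pou3f1* and *Utf1* were higher on both days, of which *Pou3f1* on day 1 and *Otx2* on day 2 passed the threshold. *Smad4* itself was not lower in KO cells (39.4 against 33.8 FPKM on day 1, 46.8 against 39.3 on day 2). Values per exon were not used here, so the loss of the first exon was not checked in these columns.

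*Nanog* was at 65.2 FPKM in WT and 18.1 in *Smad4* KO cells on day 1, and at 121 and 26.8 a day later. The log2 ratios of −1.85 and −2.18 ranked 94 and 111 from the lowest, beside 2.41% and 3.21% of genes called lower. *Otx2* levels were 22.9 and 37.8 on day 1 (log2 ratio 0.73, not called) and 15.3 and 54.2 on day 2, where it rose by 1.82, rank 68 from the highest, beside 2.56% of genes called higher. *Pou3f1* levels were 6.58 and 14.7 on day 1, a log2 ratio of 1.16 beside 2.36% of genes called higher, and 9.54 and 15.3 on day 2 (0.68, not called). *Utf1* levels were 18.0 and 21.1 on day 1 and 10.5 and 20.0 on day 2, where the log2 ratio of 0.93 stayed below the threshold.

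The other genes differed little between *Smad4* KO and WT cells. *Pou5f1* levels were 824 and 697 on day 1 and 692 and 642 on day 2 (log2 ratios −0.24 and −0.11). *Sall4* (30.5 and 25.9, then 34.3 and 41.9), *Lin28a* (222 and 209, then 269 and 313) and *Lin28b* (26.2 and 33.8, then 39.7 and 44.0) had log2 ratios from −0.23 to 0.37. The median over the 8 genes was 0.07 on day 1 and 0.25 on day 2, against medians of 0.00 and −0.01 over all genes.

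The WT cells of both lines served as a yardstick. They were treated alike but come from different ES cell lines, and they differ in table and in the loxP sites at *Smad4* that the WT of the *Smad4* line carries. Scaled to a median ratio of 1, 3 of the 8 genes were called between the WT lines on day 1, against 11.1% of 11177 genes, and 0 of 8 on day 2, against 5.08% of 11119 genes. The 3 genes were *Nanog* (16.1 in F1G4 WT and 65.2 in the WT of the *Smad4* line), *Otx2* (54.1 and 22.9) and *Pou3f1* (13.9 and 6.58). On day 1 *Smad4* KO cells therefore stood close to F1G4 WT cells in *Nanog* (18.1 against 16.1, log2 ratio 0.17) and *Pou3f1* (14.7 against 13.9, 0.08), and the difference of KO from its WT was no larger than that between both WT lines for *Nanog* (−1.85 against 2.02 between the lines) and *Otx2* (0.73 against −1.24). For 2 of the 8 genes, *Pou5f1* (−0.24 against 0.13) and *Pou3f1* (1.16 against −1.08), the KO difference exceeded the line difference on day 1.

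On day 2 the WT lines were close for *Nanog* and *Otx2* and the KO cells were not. *Nanog* was at 120 and 121 FPKM in the WT lines and at 26.8 in KO cells, and *Otx2* was at 19.3 and 15.3 against 54.2. *Utf1* was at 11.4 and 10.5 against 20.0. None of the 8 KO values lay between those of the WT lines on that day. The difference of KO from its WT exceeded the line difference for 5 of the 8 genes, but not for *Pou3f1* (0.68 against 0.85), *Lin28a* (0.22 against 0.33) and *Lin28b* (0.15 against 0.31).

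From day 1 to day 2 *Otx2* changed by a log2 ratio of −1.49 in F1G4 WT cells, −0.58 in the WT of the *Smad4* line and 0.52 in *Smad4* KO cells. *Nanog* changed by 2.90, 0.89 and 0.57, and *Utf1* by −1.22, −0.78 and −0.08. *Pou3f1*, which fell in F1G4 WT cells (−1.40), changed by 0.53 and 0.06 in the *Smad4* line, so that its course differed between both WT lines. *Lin28a* was likewise higher on day 2 in both columns of the *Smad4* line (0.27 and 0.58) and lower in F1G4 WT cells (−0.39).

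Some other genes of the network also differed between *Smad4* KO cells and their WT. Of 10 formative and primed genes, 3 were called higher and 0 lower on each day. On day 1 they ran from *Zic2* (9.63 to 28.0 FPKM, log2 ratio 1.54) to *Fgf5* (3.40 to 17.9, 2.39), and on day 2 from *Zic2* (20.7 to 48.4, 1.23) to *Foxd3* (2.15 to 8.24, 1.94). The list medians were 0.48 and 0.53. Of the core partners *Sox2* was called on day 2 (35.2 to 120, log2 ratio 1.76), 1 of 6 examined. Between the WT lines *Sox2* differed by 0.71 and *Foxd3* by −0.27 on that day, and *Fgf5* by −1.30 and *Zic2* by −0.96 on day 1. Of 10 naive genes, 3 of the 8 examined were called lower on day 1, from *Tbx3* (2.19 to 0.307, −2.84) to *Klf2* (3.85 to 1.71, −1.17). On day 2 only 5 were examined, all called lower, from *Tbx3* (1.88 to 0.106, −4.15) to *Tfcp2l1* (1.83 to 0.884, −1.05). Of these, *Tbx3*, *Tfcp2l1* and *Esrrb* (1.11 to 0.276) passed the FPKM minimum only through WT, which favors ratios below 0. Of those under the minimum, *Klf2* (−2.82) and *Nr5a2* (−3.14) were lower in KO cells. *Klf4* (0.52), *Prdm14* (0.44) and *Tcl1* (0.22) were higher. Of the LIN28 and let-7 genes 0 of 9 were called on either day. Among the paralogs 3 of 4 examined were called on day 2, *Sall1* (3.74 to 10.3, 1.46) and *Sall2* higher and *Sall3* (1.20 to 0.256, −2.23) lower. *Sall3* passed the FPKM minimum only through WT.

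Markers of other cell types changed beside them. Of 6 neural markers, *Pax6* and *Sox1* were called higher in *Smad4* KO cells on both days (*Pax6* 0.378 to 10.4 and *Sox1* 0.302 to 3.58 FPKM on day 2). *Sox1* on both days and *Pax6* on day 2 passed the FPKM minimum only through KO and so could only be called higher. On day 1 *Pax6* (1.02 to 5.65) passed it in WT too. The list summed to 1.41 FPKM in WT against 7.91 in KO cells on day 1 and to 0.852 against 14.3 on day 2, while *Hesx1*, *Six3*, *Lhx5* and *Zic1* were at 0.325 FPKM or less in all 4 columns. Of 6 germ cell markers, *Dppa3* (65.7 to 9.87) and *Tfap2c* (4.47 to 0.854) were called lower on day 2, with list sums of 219 and 132 on day 1 and 76.1 and 14.4 on day 2. Most of these sums was *Dppa3* (194 and 116 on day 1), which the paper counts among pluripotency genes. Both genes were also expressed in F1G4 ES cells (*Dppa3* 218 and *Tfap2c* 17.0 FPKM), so neither is particular to germ cells here. Of 6 nascent mesoderm markers, 5 were called lower on day 2 (sums of 76.6 and 2.84). Fibroblast markers, which would show remaining feeder cells, summed over 8 genes to 3.70 FPKM (WT) and 3.75 (KO) on day 1, and to 2.69 (WT) and 5.55 (KO) on day 2. Of these, *Dcn* was listed at 0 in WT and at 2.02 FPKM in KO cells on day 2. Endoderm markers summed to 0.275 to 0.803 over 6 genes. The part of any of these cell types in the levels of *Nanog*, *Otx2* and *Pou3f1* was not tested.

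**Figure D3:**
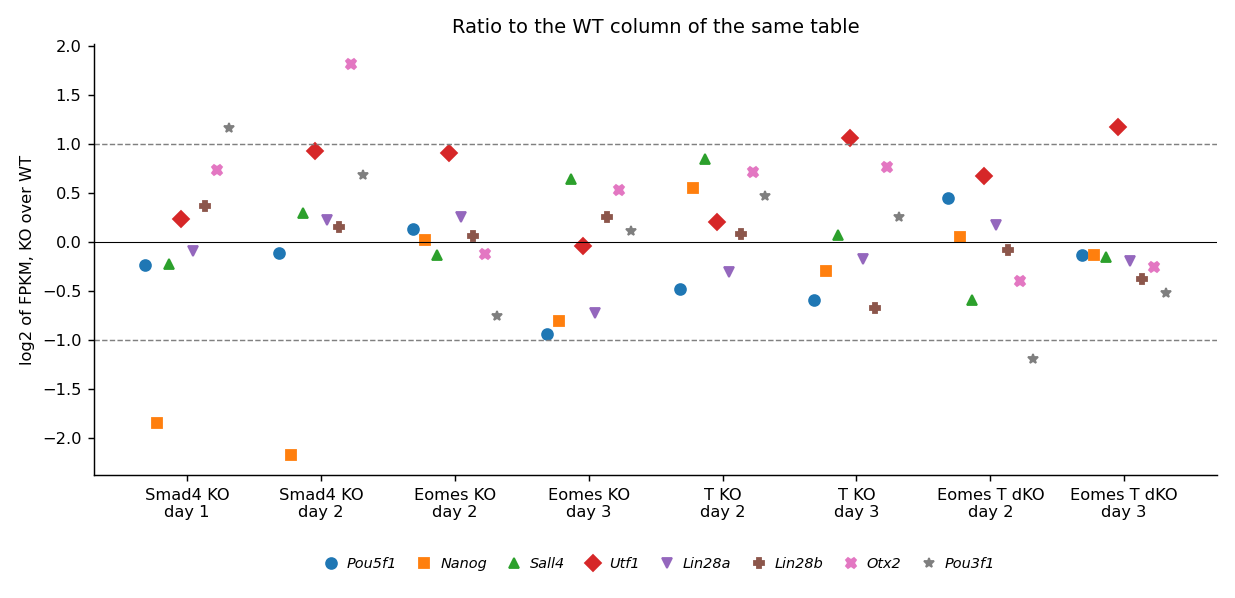
Log2 ratio of FPKM in KO over WT cells of the same table for each of the 8 genes (symbols) in the 8 KO comparisons, with dashed lines at the threshold of ±1. *Nanog* lies lowest in both *Smad4* KO comparisons (−1.85 and −2.18), and 3 points lie past the threshold among the 6 comparisons of *Eomes* and *T* mutants.

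Mutants of *Eomes*, *T* or both were compared with F1G4 WT to ask which genes depend on these T-box factors. *Eomes* was at 2.42 FPKM in *Eomes* KO cells on day 2 (9.42 in WT) and at 0.276 on day 3 (20.3 in WT), and *T* at 6.64 in *T* KO cells on day 2 (44.8 in WT) and at 3.00 on day 3 (323 in WT). In dKO cells *Eomes* and *T* were at 1.24 and 2.77 on day 2 and at 0.346 and 1.93 on day 3. Of 48 ratios of the 8 genes over these 6 comparisons, 3 were called. In *Eomes* KO cells 0 of 8 genes were called on day 2 (7.52% of 11226 genes) and 0 of 8 on day 3 (16.4% of 11629). In *T* KO cells 0 of 8 were called on day 2 (15.6% of 11359) and 1 on day 3 (6.04% of 11239). In dKO cells 1 was called on day 2 (7.99% of 11195) and 1 on day 3 (11.0% of 11473). The 6 comparisons share the WT samples of their day, and the dKO line was derived from the *Eomes* KO cells, so their values are not independent.

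Markers of other cell types differed in these mutants too. The neural marker *Sox1* was called higher in 5 of the 6 comparisons (log2 ratios from 4.26 to 5.16) and *Pax6* in 3, namely *Eomes* KO on day 2 and dKO on both days. Both were at 0.209 FPKM or less in WT. They passed the FPKM minimum only through KO and so could only be called higher. *Hesx1*, *Six3*, *Lhx5* and *Zic1* were at 0.612 FPKM or less in all of these columns. The 6 neural markers summed to 0.456 FPKM in WT on day 2 and 0.395 on day 3, and to 11.9 and 7.08 in *Eomes* KO, 5.11 and 1.20 in *T* KO and 9.47 and 11.0 in dKO cells. All 6 nascent mesoderm markers, which include the targeted genes, were called lower in each mutant on day 3, with sums of 6.08 in *Eomes* KO, 25.1 in *T* KO and 13.3 in dKO against 421 in WT. On day 2 the sums were 31.4, 46.4 and 11.0 against 71.3. The *T* KO sum includes the targeted *T* (44.8 to 6.64) and hides differences in both directions. *Eomes* (9.81 to 24.7, log2 ratio 1.33) and *Evx1* (3.61 to 7.53, 1.06) were called higher there, and *Mixl1* (−1.19) and *Fgf8* (−1.01) lower. Germ cell markers summed to 37.8 to 53.4 on day 2 (49.3 in WT) and to 29.1 to 40.4 on day 3 (27.7 in WT), and fibroblast markers to 1.99 to 5.84 (3.32 and 3.27 in WT). Endoderm markers summed to 1.32 to 2.41 on day 2 (0.582 in WT) and to 1.55 to 2.97 on day 3 (5.38 in WT). On day 3 *Foxa2* was called lower in *Eomes* KO (4.71 to 0.0791) and dKO cells (4.68 to 0.310). *Ttr* was called higher in both (0 to 1.11 and 0 to 1.25), having passed the FPKM minimum only through KO. The part of these cell types in the levels of the 8 genes was not tested.

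*Utf1* was above WT in 5 of the 6 comparisons, and in the sixth its sign depended on the scaling. On day 2 WT columns held 11.2 to 11.7 FPKM, and the levels were 21.1 in *Eomes* KO (log2 ratio 0.91), 13.5 in *T* KO (0.20) and 17.8 in dKO cells (0.67). On day 3, with 4.19 to 4.33 in WT, *Utf1* was at 4.20 in *Eomes* KO (−0.04), and it was called higher in *T* KO (8.75, 1.06, or 0.91 with a pseudocount of 1) and dKO cells (9.71, 1.17). *Pou3f1* on day 2 was at 3.08 in *Eomes* KO (log2 ratio −0.76) and 2.28 in dKO cells (−1.20, called lower, or −0.92 with a pseudocount of 1), against 5.23 to 5.46 in WT, and at 7.58 in *T* KO cells (0.47). On day 3 it was at 7.33 in *Eomes* KO, 7.80 in *T* KO and 4.73 in dKO cells, with log2 ratios of 0.11, 0.25 and −0.52.

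*Nanog*, which was low without *Smad4*, was at 122 FPKM in *Eomes* KO, 183 in *T* KO and 124 in dKO cells on day 2 against 120 to 125 in the WT columns (log2 ratios 0.02, 0.55 and 0.05). On day 3 it was at 70.8, 97.1 and 113 against 120 to 124 in WT (−0.81, −0.30 and −0.13). *Otx2* on day 2 was at 17.6, 32.8 and 14.6 against 19.1 to 20.0 in WT (−0.12, 0.71 and −0.40), and on day 3 at 17.3, 19.6 and 10.0 against 11.6 to 12.1 (0.53, 0.76 and −0.26). None of these passed the threshold.

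*Pou5f1* on day 2 was at 802 FPKM in *Eomes* KO, 549 in *T* KO and 1004 in dKO cells against 733 to 764 in WT (log2 ratios 0.13, −0.48 and 0.45). On day 3 it was at 253, 311 and 441 against 469 to 486 (−0.94, −0.59 and −0.13), the lowest levels of the series being those of both single KO lines. *Sall4* was at 53.8 in *T* KO cells on day 2 (0.85) and at 35.3 in *Eomes* KO cells on day 3 (0.64), the columns that stood apart, and between −0.59 and 0.07 in the other comparisons. *Lin28a* had log2 ratios from −0.73 (*Eomes* KO day 3, 120 FPKM) to 0.25 and *Lin28b* from −0.68 (*T* KO day 3, 16.4 FPKM) to 0.25.

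**Figure D4:**
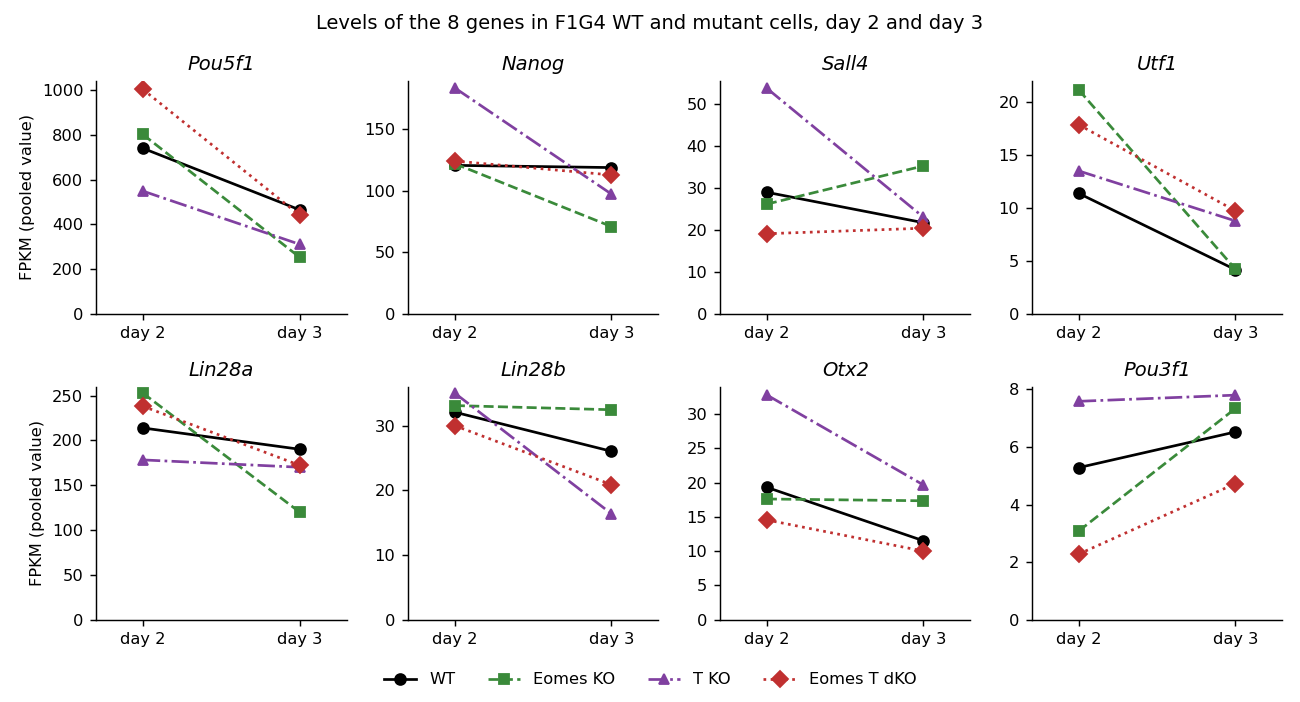
FPKM (linear axis, pooled value per condition) of each gene on days 2 and 3 in F1G4 WT (black circles), *Eomes* KO (green squares), *T* KO (purple triangles) and *Eomes*/*T* dKO cells (red diamonds). *Utf1* is lower on day 3 than on day 2 in all 4 lines, and *Pou5f1* in *Eomes* KO cells goes from 802 to 253.

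From day 2 to day 3 *Pou5f1* was lower on the later day in all 4 F1G4 lines, with log2 ratios of −0.67 in WT, −1.67 in *Eomes* KO, −0.82 in *T* KO and −1.19 in dKO cells. *Utf1* was lower by −1.45, −2.33, −0.62 and −0.88. *Pou3f1* went the other way, with 0.30, 1.25, 0.04 and 1.05. Ratios of KO columns are taken across tables, and those of *Eomes* KO and *T* KO each rest on a column that stood apart. Summed FPKM also differed between days 2 and 3, at 608585 and 524868 in dKO and 534043 and 401510 in *Eomes* KO cells. The size of these steps therefore depends on the scaling.

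In *Eomes* KO cells on day 3 the median log2 ratio of protein-coding genes was −0.23 in the shortest and 0.20 in the longest of 4 equal groups by transcript length, and in dKO cells on day 2 it was 0.26 and −0.31. The transcripts of *Pou5f1* (1362 bases) and *Utf1* (1227 bases) are short, and those of *Sall4* (5073) and *Lin28b* (5402) long. With the trends of length and GC content removed, *Pou5f1* in *Eomes* KO cells on day 3 had a log2 ratio of −0.81 in place of −0.94, *Sall4* 0.41 in place of 0.64, *Sall4* in *T* KO cells on day 2 0.74 in place of 0.85, and *Pou3f1* in dKO cells on day 2 −0.94 in place of −1.20, below the threshold. Rescaled to TPM, which gives every column the same total, the median log2 ratio of all genes shifted by −0.41 in dKO cells on day 2, by 0.28 in *Eomes* KO cells on day 3 and by −0.22 in *Eomes* KO cells on day 2. Under TPM, a median ratio of 1 or the removal of length and GC trends, 9 of the 96 ratios of the 8 genes changed sign, none of them larger than 0.17 in size.

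Of the lists, the core partners held 4 genes called higher and 1 lower of 7 in *T* KO cells on day 2, from *L1td1* (199 to 63.9 FPKM, log2 ratio −1.64) to *Nr0b1* (0.309 to 1.57, 2.34). In this column, which stood apart, 15.6% of 11359 genes were called. *Nr0b1* passed the FPKM minimum only through KO and so could only be called higher. In the remaining 5 comparisons at most 1 core partner was called. *Fgf5* was the lowest called gene of the formative and primed list in both *Eomes* KO (−1.83 and −4.57), both dKO (−2.61 and −2.74) and the day 2 *T* KO comparisons (−1.20). Of 5 paralogs examined on day 3, 3 were called in each mutant. *Sall2* was higher, at 12.3 FPKM in *Eomes* KO, 8.61 in *T* KO and 10.8 in dKO cells against 3.93 to 4.07 in WT (log2 ratios 1.60, 1.13 and 1.41). *Pou6f1* (−1.81, −1.91 and −2.28) and *Sall3* (−1.33, −2.47 and −1.05) were lower. Both passed the FPKM minimum only through WT, which favors ratios below 0. On day 2 no paralog was called in *Eomes* KO or dKO cells (3 examined in each), and *Sall2* (1.66) and *Sall3* (2.53) were called higher in *T* KO cells. There *Sall3* (0.579 to 3.34 FPKM) passed the minimum only through KO, which favors ratios above 0. Of the LIN28 and let-7 genes, 0 of 9 were called in any of the 6 comparisons, and of the naive genes at most 2 were called.

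Over all 14 columns the pattern of *Nanog* was opposite to that of *Pou3f1* and *Otx2* (Pearson r of −0.74 and −0.70 on log2 of FPKM + 0.1), and *Otx2* and *Pou3f1* went together (0.67), as did *Pou5f1* and *Utf1* (0.80). *Lin28a* and *Lin28b* had an r of 0.56, or 0.91 without the *T* KO column of day 2 and the *Eomes* KO column of day 3. The columns are not independent, as KO and WT cells share lines and days. Differences between columns in summed FPKM and in trends with transcript length were not removed before these correlations, and *Pou5f1* and *Utf1* both have short transcripts. Among 7224 genes with an FPKM of at least 10 in a column, the 2 most like *Nanog* were *Pdgfa* (0.92), a growth factor gene, and *Lefty1* (0.87), which encodes a Nodal antagonist. Those most like *Otx2* were *Fzd7* (0.90), a Wnt receptor gene, and *Dnmt3b* (0.85), and those most like *Pou3f1* were *Plekha5* (0.88) and *Zfp36l2* (0.85). *Pou5f1* was most like *Rpf2* (0.97) and *Nhp2* (0.96), which act in ribosome biogenesis, *Utf1* most like *Pdzd4* (0.95) and *Platr10* (0.94), and *Sall4* most like *Gon4l* (0.93) and *Polr3a* (0.92). For *Lin28a* they were *Gars* (0.90) and *Dab1* (0.89), and for *Lin28b* *Trove2* (0.89) and *Eif5a2* (0.88).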

How the data were processed

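RNA-seq tables of 18 samples were used, with 2 samples per F1G4 WT stage and 1 per other line and day by their labels. The authors aligned strand-specific reads of ScriptSeq libraries with HISAT2 2.1.0 to mm10 and computed FPKM with Cuffdiff 2.2.1 (multi-read and bias correction, refSeq genes). The deposited FPKM tables hold a single value per gene and condition, averaged over replicates by the study's legends, so read depth, counting precision, SD and n are unknown. F1G4 WT columns of the KO tables are rescaled copies of the time-course columns. FPKM is a relative measure, so a level depends on how its column was scaled. Median log2 ratios over all genes examined were −0.06 to 0.01, while summed FPKM ran from 401510 (*Eomes* KO day 3) to 608585 (dKO day 2).

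Log2 ratios were taken within a table and without a pseudocount, and genes were examined and called by the authors' rule. Levels across tables, between the WT lines and between KO days were compared without a test. The 26 rows of the time-course table with names turned into dates were used in counts over all genes but not by name, which left 24512 genes shared by all tables. The 8 genes, the gene lists and the markers were chosen with earlier results of these data known. Named genes are the 8 genes, the highest and lowest called gene of a list, the 2 genes most like each of the 8, and the targeted genes. *Sox1*, *Pax6*, *Dppa3*, *Tfap2c* and the other marker genes, *Otx1*, *Crx*, *Sall2*, *Sall3* and *Pou6f1* in mutants were named after their values were seen. Length and GC content came from the longest GENCODE vM21 transcript of a gene, and trends were removed by subtracting medians of 20 equal groups of protein-coding genes. Promoter windows are from RefSeq (GRCm38.p6). Calculations used Python, numpy and pandas, and plots matplotlib. Alternatives were pseudocounts of 0.1 and 1, no FPKM minimum, a minimum of 5, TPM, scaling to a median ratio of 1, and the time-course WT column.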

Additional observations from a re-analysis of the deposited data

Results flagged for a closer look

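*Pou3f1* was called in opposite directions in KO comparisons, higher in *Smad4* KO cells on day 1 (log2 ratio 1.16, 6.58 FPKM in WT and 14.7 in KO) and lower in *Eomes*/*T* dKO cells on day 2 (−1.20, 5.23 in WT and 2.28 in KO). The difference was not tested, since each group is a single pooled value, and the comparisons differ in line and day. Without *Smad4* on day 2 *Pou3f1* had a log2 ratio of 0.68.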

How the results depend on the processing

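Of 96 log2 ratios of the 8 genes in 12 comparisons, 19 were called, and 0 of these changed sign under 8 alternatives (1 of them, the removal of length and GC trends, chosen after seeing the data). The call was lost under at least 1 alternative for 4 of the 19, and 0 ratios were newly called. *Otx2* from ES to day 1 had a log2 ratio below 1 with a pseudocount of 1 (0.97) or 0.1. *Pou5f1* from ES to day 3 had −0.98 as TPM. *Utf1* in *T* KO cells on day 3 had 0.91 with a pseudocount of 1, which moved the count of called genes from 1 to 0. *Pou3f1* in dKO cells on day 2 had −0.92 with a pseudocount of 1 and −0.94 with length and GC trends removed, both of which moved that count from 1 to 0. The counts of the other comparisons, and those between the WT lines under 4 alternatives chosen after seeing the data, stayed within 1.5 times. Without the *T* KO column of day 2 and the *Eomes* KO column of day 3, 7 of the 16 genes named as most like 1 of the 8 were still among its 2 most like, and *Polr3a* went to rank 53 for *Sall4*. No paired analysis was possible because each condition is a single pooled column. For the same reason no replicate could be left out, and differences under the spread of replicates cannot be recognised.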
